A study of Homo sapiens with 4 samples.

Results

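The nuclear-encoded genes of the mitochondrial respiratory chain were examined in 4 RNA-seq libraries. Members were the protein-coding genes whose symbols begin with NDUF, UQCR, COX4, COX5, COX6, COX7, COX8 or ATP5, together with SDHA, SDHB, SDHC, SDHD, CYC1 and CYCS. The rule used gene names and no measured value. It took 99 of the 44591 genes listed for each library, out of 19233 protein-coding genes. By the complex each serves, 37 members encode subunits of complex I and 8 encode its assembly factors. There were 4 for complex II, 10 for complex III, 1 for cytochrome c, 19 for complex IV and 16 for complex V. The remaining 4 were 2 readthrough transcripts, ATP5J2-PTCD1 and NDUFC2-KCTD14, and ATP5S and ATP5SL, which carry the ATP5 prefix but were not counted as subunits. NDUFA4 and its paralogue NDUFA4L2 were placed with complex IV, where NDUFA4 protein is now assigned.

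The study asked what follows the depletion of SALIS, a long noncoding RNA listed as LINC01186, in cells of the liver cancer line HepG2. Cells labelled HepG2 received siNC, a control siRNA, or siLINC01186, siRNA against SALIS, and were kept for 6 h without serum and then for 24 h in medium with 10% serum. Each treatment had 2 libraries, which the study describes as biological repeats that shared siNC and differed in the siLINC01186 oligo. A difference between replicate numbers among the libraries labelled siLINC01186 therefore holds both the culture and the oligo, which cannot be told apart. Poly(A) RNA was sequenced, and the deposited counts summed to between 14968958 and 17297245 per library. CPM denotes counts per 1000000, with library size scaled by edgeR's TMM method, and 3 counts correspond to between 0.169 and 0.210 CPM, a floor that covers counting error only.

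The targeted gene and the cell label were checked first. The siNC libraries held 15 (replicate 1) and 14 (replicate 2) counts of LINC01186, and the libraries labelled siLINC01186 held 12 and 14. The log2 ratio between treatments was -0.12, SE 0.53 (edgeR's quasi-likelihood test, unadjusted p = 0.831), so no depletion was detectable at this depth. The study itself reported knockdown of SALIS by siRNA in HepG2 cells, measured by qPCR, which these counts do not show. Defining hepatocyte-type transcripts of HepG2 were absent or nearly so. ALB, serum albumin, had 0 counts in both replicate 1 libraries and 0.929 and 0.788 CPM in siNC and siLINC01186 of replicate 2. APOA1, the main protein of high-density lipoprotein, had 0 counts in both replicate 1 libraries and 1.30 and 1.13 CPM in replicate 2. AFP lay between 0.119 and 0.900 CPM, and TTR, FGA and FOXA2 were at 0 in 3 of 4 libraries. Of 12 such markers, HNF4A was the highest, at 4.72 and 5.81 CPM in siNC and siLINC01186 of replicate 1 and at 9.97 and 10.6 CPM in replicate 2. Summed over the list, the level was 6.75 and 7.56 CPM in replicate 1 and 18.5 and 17.6 CPM in replicate 2. Markers of other cell types summed to 93.5 and 97.3 CPM in replicate 1 and to 125 and 119 CPM in replicate 2, most of it CD68 and COL1A1. The part of these differences in the results below was not tested. The library siNC replicate 1 also stood apart in hypoxia-responsive genes, with CA9, a carbonic anhydrase induced by hypoxia, at 16.5 CPM against 83.8 to 89.9 CPM in the other 3 libraries. Its part in the results was not tested, and the members' median and calls without this library are given below. Libraries of the same treatment differed beyond sampling noise, and the chi-square per member averaged 14.9 within siNC and 17.5 within siLINC01186.

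The respiratory chain carries electrons from NADH through complex I, and from succinate through complex II, to coenzyme Q, complex III, cytochrome c and complex IV, where oxygen is reduced. Complexes I, III and IV pump protons, and complex V, the ATP synthase, uses the gradient. Complexes I, III, IV and V combine nuclear-encoded subunits with subunits encoded by mitochondrial DNA, and complex II is entirely nuclear-encoded. Transcription factors NRF1, ERR-alpha, YY1 and ETS-family GABP are known to act at promoters of many nuclear respiratory genes.

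Short matches to core motifs of these factors were sought in RefSeq promoter sequences of build GRCh38.p14, each spanning 250 bases before to 50 bases after the gene's start, with 78 of the 99 members matched by gene ID. GCGCATGC, the core of the NRF1 motif, was present on either strand in 16 members (20.5%), in 3.05% of all 35116 promoters and in 4.95% of the 12154 promoters of protein-coding genes tested here. AAGATGGC, a YY1 core, was present in 11 members (14.1%), against 2.89% and 4.75%. CCGGAAG, an ETS core, was present in 20 members (25.6%), against 10.26% and 17.15%, and AAGGTCA, an ERR core, in 8 members (10.3%), against 3.92% and 2.79%. The motifs are searched by their letters alone, and ETS and YY1 matches occurred together in 195 promoters. A match is a description of the letters and not a binding site. Among the 10 members that differed between replicate numbers, 7 had a promoter and 4 of these held a match, beside 37 of the 78 members (47.4%) and 26.39% of the promoters of protein-coding genes tested. Upstream stretches of these 4 are shown with the motif in capitals, 5′ to 3′ on the strand of the gene, since these genes carry the differences described further on. For CYCS, COX8A and the NRF1 match of NDUFB4 the capitals are the reverse complement of the motif letters above. The ERR match of COX8A and the NRF1 match of NDUFAF4 begin after the gene's start and are not shown. They are CYCS at chr7:25125411-25125440 (minus strand, NRF1 core), NDUFB4 at chr3:120596168-120596197 (plus strand, NRF1 core) and at chr3:120596286-120596314 (ERR core), COX8A at chr11:63974591-63974619 (plus strand, ETS core) and NDUFAF4 at chr6:96898021-96898049 (minus strand, ETS core).
CYCS: catgctcgccaGCATGCGCgcgcaggtcct
NDUFB4, NRF1: gagcacttcgcGCATGCGCatatcaccgag
NDUFB4, ERR: tcctgaagctgAAGGTCAgcatagacaaa
COX8A: cagctccagaaCTTCCGGccagcgcagcc
NDUFAF4: gccacctcccgCCGGAAGcggccctcgtg

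Almost every subunit gene was transcribed in all 4 libraries, and 90 of the 99 members had at least 50 counts in each. Levels are compared between genes per length, as CPM per kb of the gene length in the tables, given as the mean ± SD over the 4 libraries. The median over members was 51.2 CPM per kb.
The most abundant transcript was ATP5B, the catalytic beta subunit of ATP synthase, at 485 ± 26.4 CPM per kb (SD, n = 4). COX5B, a structural subunit of cytochrome c oxidase, followed at 323 ± 30.9, then NDUFS6, an accessory subunit near the NADH-oxidising arm of complex I, at 299 ± 33.5, COX7C of complex IV at 292 ± 27.7 and ATP5E, the epsilon subunit of ATP synthase, at 274 ± 25.9 CPM per kb. The last 4 differed from their neighbours in this order by less than 1 SD, and ATP5B stood above them by more than the spread of the libraries.

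Per-length levels ranged widely within and between complexes, and the assembly factors had the lowest median of these groups. The median level was 89.9 CPM per kb for complex V, 68.9 for complex II, 53.6 for complex III, 53.4 for complex IV and 47.0 for complex I, against 7.74 for the 8 complex I assembly factors. Of these, NDUFAF8 and NDUFAF3 were at 56.4 and 56.0 CPM per kb, above the complex I median. Within complex II, SDHA, the flavoprotein that oxidises succinate, was at 134 ± 14.9 CPM per kb (SD, n = 4) and SDHB, the iron-sulphur subunit, at 89.7 ± 10.3. The membrane anchors SDHD and SDHC were at 48.0 ± 2.87 and 23.5 ± 2.49. Gene length enters these values: CYCS, NDUFA5 and NDUFA10 carry lengths of 5538, 6507 and 9731 nt in the tables, which is far beyond their coding sequence, and stood at 27.8, 6.07 and 5.23 CPM per kb.

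**Figure D1:**
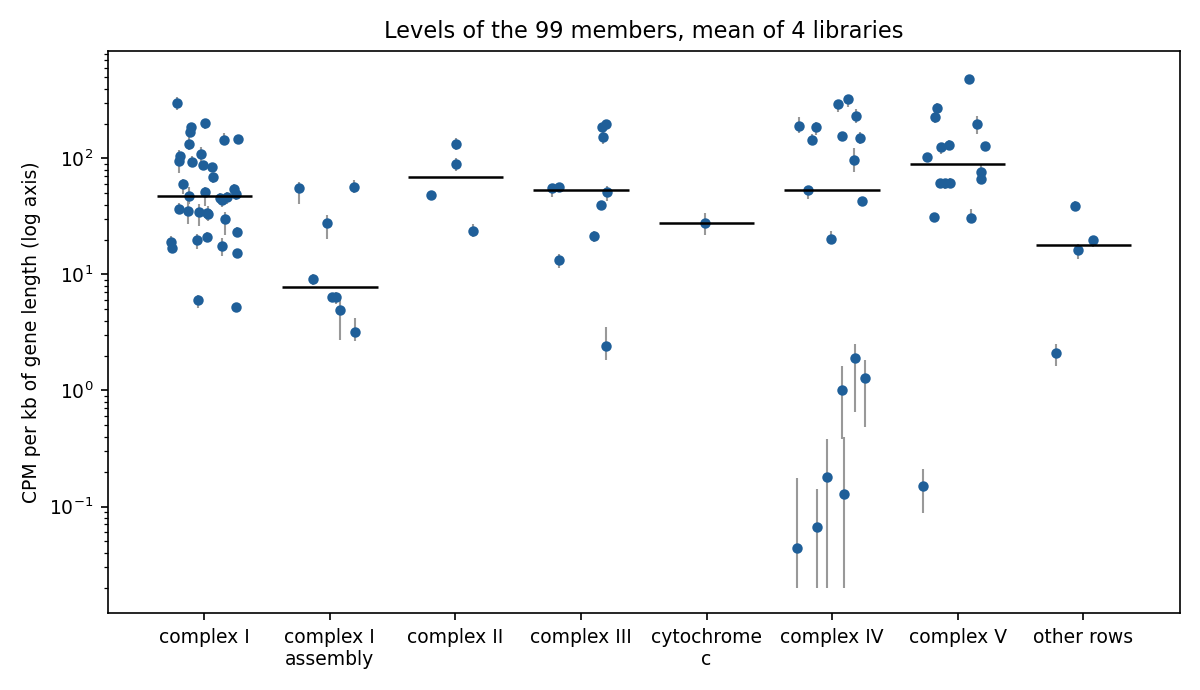
Levels of the 99 members by complex, in CPM per kb of gene length on a log axis. Each point is the mean of 4 libraries, the grey line spans the lowest to the highest library (libraries at 0 are drawn at the bottom, at 0.02), and the black bar is the median of the complex; ATP5B is highest at 485, and COX4I2, COX6A2, COX7B2 and COX8C of complex IV lie near 0.

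Several complex IV paralogues known from particular tissues were at or near 0, beside abundant widely expressed forms. COX4I2, the lung and hypoxia-linked form, had 2 counts in all 4 libraries together, while COX4I1 was at 188 ± 19.6 CPM per kb (SD, n = 4). COX6A2, the heart and muscle form, also had 2 counts in all, COX8C had 4 and the testis-type COX7B2 had 6. COX4I2, COX6A2 and COX8C fell under the minimum of 5 counts over the 4 libraries and were not tested, which left 96 members. COX7A1, another muscle form, was at 1.28 ± 0.571 CPM per kb against 53.4 ± 5.81 for COX7A2, while COX7A2L was abundant, with COX7A2 above it per length by only 2.42 to 3.07 times. COX6B2, the testis form, was present at low level, and COX6B1 exceeded it per length by 185 and 431 times in siNC and siLINC01186 of replicate 1 and by 84.5 and 109 times in replicate 2. The 3 genes for the c-ring subunit of ATP synthase encode the same mature protein and differed in level, with ATP5G1 at 103 ± 5.63, ATP5G2 at 66.6 ± 7.21 and ATP5G3 at 31.6 ± 1.82 CPM per kb.

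Counts of annotated copies of these genes were low beside their parents. The tables held 113 pseudogenes of 39 members, and their counts came to between 0.166% and 0.235% of those of their parents. In 4 of them the share was above 1%, and it was highest for UQCRFS1P1, at 5.39% of UQCRFS1. The readthrough gene NDUFC2-KCTD14 had between 83.2% and 84.1% of the counts of NDUFC2, while KCTD14 itself had at most 2 counts, and ATP5J2-PTCD1 had between 98.1% and 101.7% of the counts of PTCD1. ATP5J2-PTCD1 also had between 71.6% and 89.9% of the counts of ATP5J2. Both readthrough genes are included in the counts of members below. Values of these 2 readthrough genes, and of NDUFC2 and ATP5J2, are therefore uncertain, since overlapping genes appear to share reads. The same holds for UQCRHL, a near copy of UQCRH, with 86 counts in all.

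For siLINC01186 against siNC, no member passed the test without a replicate block, and the members lay slightly higher as a group. The question was whether respiratory chain transcripts differ between cells given the control siRNA and those given siRNA against SALIS. When p from edgeR's quasi-likelihood fit was adjusted by Benjamini-Hochberg across the 23942 genes tested, 0 of 96 members and 0 genes in all (background 0%) had an adjusted p under 0.05. DESeq2's Wald test, also without a block, called 1 gene and 0 members. With replicate number as a block, edgeR's fit called 278 genes (1.16%) and 3 members (3.12%), all 3 higher. The values that follow in this paragraph are without the block. At an unadjusted p under 0.05 there was 1 member, against 289 genes (1.21%), and 0 members passed a log2 fold change beyond 1 with an unadjusted p under 0.05, against 181 genes (0.756%). The median fitted log2 fold change over the members was 0.14, with quartiles of 0.06 and 0.22, against 0.0045 over all genes tested and 0.0034 over protein-coding genes. The difference was above 0 for 82 of 96 members and for 50.8% of all genes. Fitted without siNC replicate 1, the members' median was 0.13, and 67 of 96 members were above 0. Members above 0 came to 70 without siLINC01186 replicate 2, to 77 without siLINC01186 replicate 1 and to 82 without siNC replicate 2. The 2 siLINC01186 libraries both lay above the 2 siNC libraries for 42 members (43.8%), against 13.6% of all genes, and both lay below for 4 members (4.17%), against 12.4%. Summed over members, the level was 8197 and 9057 CPM in siNC and siLINC01186 of replicate 1, and 8447 and 8771 CPM in replicate 2. In bulk RNA, a change in the cells sampled and a change of RNA within a cell cannot be told apart, and p-values here measure only the spread between these libraries.

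Within replicate numbers, each a comparison of 1 library with 1 and so without a test, 67 members were higher with siLINC01186 in both, against 27.2% of all genes, and 7 were lower in both, against 26.2%. The median difference in log2 CPM was 0.16 within replicate 1 and 0.10 within replicate 2. The shift was small for all complexes. Median log2 fold changes were 0.15 for complex I with 33 of 37 genes above 0, 0.21 for its assembly factors with 6 of 8, 0.15 for complex II with 4 of 4, and 0.06 for complex III with 8 of 10. They were 0.13 for complex IV with 14 of 16 tested and 0.10 for complex V with 12 of 16.

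**Figure D2:**
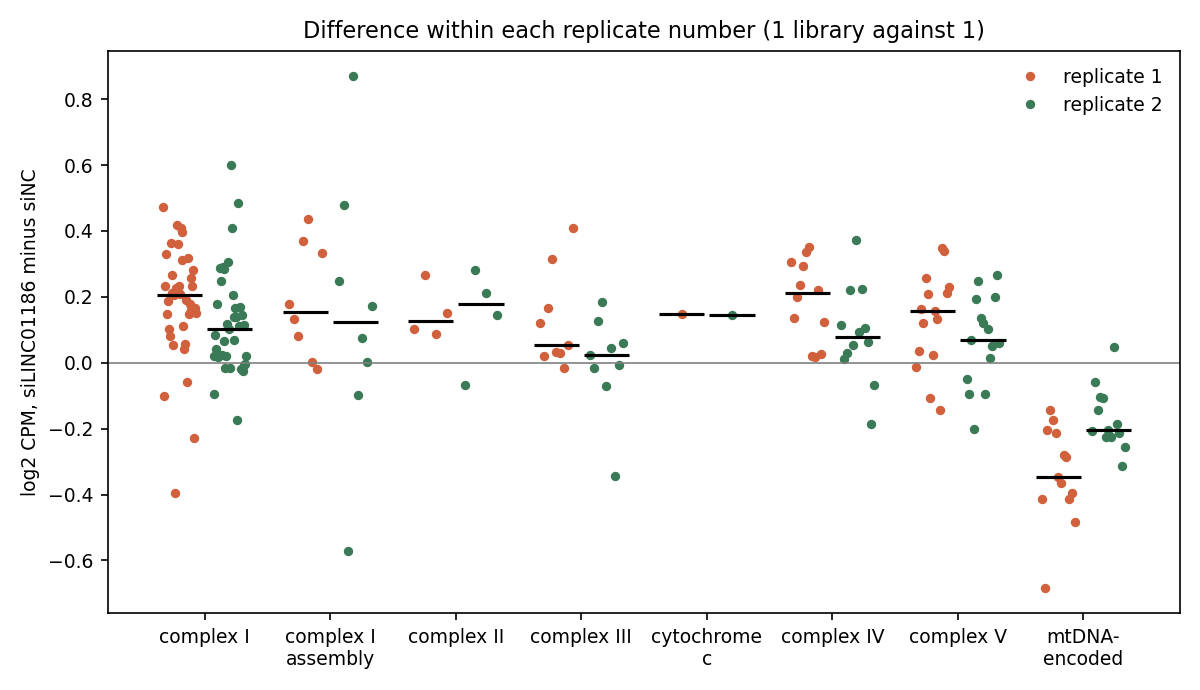
Difference in log2 CPM between siLINC01186 and siNC within each replicate number, 1 library against 1, for members whose counts over the 4 libraries came to 200 or more and for the 13 subunits encoded by mitochondrial DNA. Each point is a gene and black bars are medians; nuclear-encoded complexes have medians above 0 in both replicates, and the mitochondrially encoded subunits have medians of -0.35 and -0.21.

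NDUFB5, an accessory subunit in the membrane arm of complex I, had the smallest p of the members (chr3:179322575-179342288, hg19, plus strand). It was at 28.7 and 32.6 CPM in siNC replicates 1 and 2 and at 38.1 and 49.5 CPM with siLINC01186. Both siLINC01186 libraries were above both siNC libraries. The fitted difference was 0.52 on the log2 scale (SE 0.21, edgeR's quasi-likelihood test, unadjusted p = 0.0344). It did not pass adjustment without a replicate block and did with the block (edgeR adjusted p = 0.0249). Without siLINC01186 replicate 2 the difference was 0.30. NDUFB6, another membrane-arm subunit, was at 12.4 and 13.4 CPM in siNC and at 16.4 and 17.9 CPM with siLINC01186 (log2 fold change 0.41, SE 0.22, edgeR unadjusted p = 0.102). NDUFAF4, a complex I assembly factor, was at 12.5 and 6.63 CPM in siNC and at 16.2 and 12.2 CPM with siLINC01186, where the groups overlapped. NDUFAF3, another assembly factor, was at 101 and 103 CPM in siNC and at 107 and 69.2 CPM with siLINC01186, and siLINC01186 replicate 2 alone was low. NDUFAF5, which modifies NDUFS7, was at 7.52 and 6.88 CPM in siNC and at 10.2 and 6.41 CPM with siLINC01186.

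The core subunits of complex I described here did not share one direction. NDUFS1, the largest iron-sulphur subunit, was at 73.3 and 82.4 CPM in siNC and at 70.3 and 73.1 CPM with siLINC01186, so both treated libraries were lower. NDUFV1, which binds NADH, was at 147 and 142 CPM in siNC and at 125 and 142 CPM with siLINC01186. NDUFS8, an iron-sulphur subunit of the connecting arm, was at 110 and 106 CPM in siNC and at 134 and 115 CPM with siLINC01186. Log2 fold changes of NDUFS3, NDUFS7 and NDUFV2 lay between 0.08 and 0.13 with standard errors of 0.18. Among accessory subunits, NDUFA1 was at 18.7 and 27.1 CPM in siNC and at 26.0 and 27.5 CPM with siLINC01186, and NDUFB11 at 104 and 119 against 140 and 130 CPM.

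In complex II, SDHB was at 96.8 and 90.5 CPM in siNC and at 116 and 110 CPM with siLINC01186, without overlap (log2 fold change 0.27, SE 0.18, edgeR unadjusted p = 0.161). The anchor SDHC was at 61.1 and 67.1 CPM in siNC and at 64.9 and 77.8 CPM with siLINC01186, and SDHD at 72.2 and 71.7 against 80.2 and 79.3 CPM. SDHD did not overlap between treatments. SDHA gave 328 and 418 CPM in siNC and 352 and 399 CPM with siLINC01186, with overlap. In complex III, UQCRFS1, the Rieske iron-sulphur protein, went furthest against the general direction, at 72.7 and 72.0 CPM in siNC and 71.9 and 56.8 CPM with siLINC01186. The processing-peptidase-like core subunits UQCRC1 and UQCRC2 had log2 fold changes of -0.02 and 0.04. UQCRQ, a small subunit that contacts cytochrome b, was at 68.5 and 81.3 CPM in siNC and at 91.0 and 84.7 CPM with siLINC01186. UQCRB, a small subunit at the ubiquinone side, was at 59.5 and 68.9 CPM in siNC and at 74.1 and 78.3 CPM with siLINC01186, without overlap. Cytochrome c, CYCS, was at 170 and 121 CPM in siNC and at 189 and 134 CPM with siLINC01186, so the gap between replicate numbers exceeded that between treatments.

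In complex IV, COX6C was at 70.7 and 87.0 CPM in siNC and at 89.4 and 113 CPM with siLINC01186, without overlap (log2 fold change 0.36, SE 0.21, edgeR unadjusted p = 0.116). The difference was 0.17 without siLINC01186 replicate 2 and 0.52 without siLINC01186 replicate 1. COX4I1, the subunit through which ATP inhibits the enzyme, was at 189 and 223 CPM in siNC and at 234 and 241 CPM with siLINC01186. COX7A2 was at 34.0 and 40.4 CPM in siNC and at 43.5 and 43.2 CPM with siLINC01186. COX7A2L, which acts in supercomplex assembly, was at 57.6 and 63.1 CPM in siNC and at 58.4 and 73.7 CPM with siLINC01186. COX8A, a small membrane subunit, was on the other side, at 84.8 and 116 CPM in siNC and at 86.4 and 102 CPM with siLINC01186. NDUFA4L2, the hypoxia-induced paralogue of NDUFA4, had 13 and 37 counts in siNC and 43 and 53 counts with siLINC01186. That is 0.776 and 2.29 CPM against 3.01 and 2.98 CPM (log2 fold change 0.97, SE 0.52, edgeR unadjusted p = 0.0978), and siNC replicate 1 alone was low. Fitted without siNC replicate 1, its log2 fold change was 0.39. NDUFA4 itself was at 86.4 and 90.0 CPM in siNC and at 94.1 and 85.8 CPM with siLINC01186.

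In complex V, the alpha and beta subunits of the catalytic head, ATP5A1 and ATP5B, had log2 fold changes of -0.03 and -0.03, each with a standard error of 0.18. ATP5C1, the gamma subunit that turns within the head, was at 69.8 and 67.8 CPM in siNC and at 78.2 and 71.2 CPM with siLINC01186, without overlap (log2 fold change 0.12, SE 0.18). Of the small subunits, ATP5J2 was at 104 and 105 CPM in siNC and at 131 and 121 CPM with siLINC01186, and ATP5E at 107 and 115 against 128 and 131 CPM, both without overlap. ATP5L, the g subunit of the membrane part, was at 78.8 and 77.7 CPM in siNC and at 91.3 and 93.6 CPM with siLINC01186. ATP5F1, the b subunit of the peripheral stalk, was at 161 and 140 CPM in siNC and at 186 and 166 CPM with siLINC01186, and ATP5J, coupling factor 6, at 52.2 and 52.1 against 66.5 and 54.0 CPM. ATP5L, ATP5F1 and ATP5J did not overlap between treatments. The stalk subunit ATP5O was at 87.2 and 104 CPM in siNC and at 102 and 108 CPM with siLINC01186. Of 3 complex V proteins whose symbols fall outside the rule, USMG5, C14orf2 and ATPIF1, 3 had log2 fold changes above 0, between 0.03 and 0.32.

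The 13 subunits encoded by mitochondrial DNA lay on the opposite side. Their median log2 fold change was -0.29, all 13 were below 0, and none passed the test without a replicate block. In 11 of them both siLINC01186 libraries lay below both siNC libraries, and 12 were lower in both replicates, with ND3 the exception in replicate 2. Their summed level was 35910 and 29710 CPM in siNC and siLINC01186 of replicate 1, and 34920 and 30940 CPM in replicate 2. ND5, a proton-pumping subunit of complex I, was at 2826 and 2503 CPM in siNC and at 2149 and 2016 CPM with siLINC01186 (log2 fold change -0.36, SE 0.19, edgeR unadjusted p = 0.0896). COX1, the catalytic subunit of complex IV, was at 7566 and 8040 CPM in siNC and at 6565 and 7275 CPM with siLINC01186.

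Ribosomal protein genes lay on the same side as the members. Genes of cytosolic ribosomal proteins had a median log2 fold change of 0.17, with 86 of 87 above 0, and mitochondrial ribosomal proteins 0.11, with 60 of 78. For 48 respiratory chain assembly factors outside the rule the median was 0.07, and for 21 regulators of respiratory genes and mitochondrial DNA it was -0.03. Gene length moved with the difference. Among 11162 protein-coding genes with a mean log2 CPM above 2, the median log2 fold change of genes other than members was 0.12 under 600 nt, 0.11 from 600 to below 1000 nt, 0.05 from 1000 to below 2000 nt, 0.01 from 2000 to below 4000 nt and -0.05 from 4000 nt. Members in the same classes had medians of 0.16, 0.13, 0.15, 0.11 and 0.15, the last over 5 genes. The share above 0 among the other genes was 68%, 76%, 64%, 53% and 37% in these classes. Among members it was 84%, 96%, 78%, 85% and 80%. With a length trend taken out of the counts, the median over the members was 0.072, and 74 of 96 members were above 0. The part of length in the members' values was otherwise not tested.

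**Figure D3:**
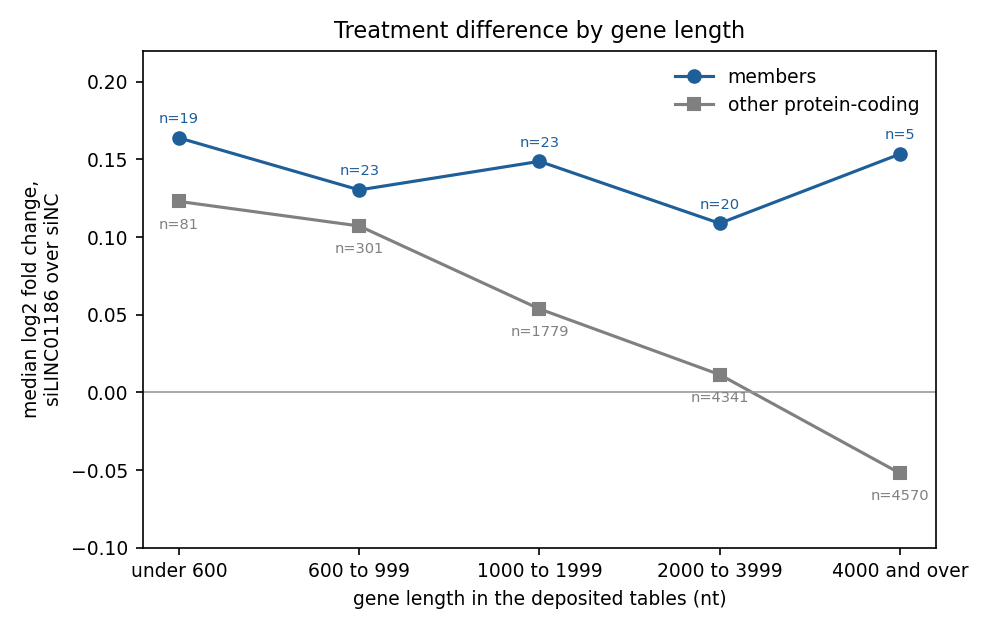
Median log2 fold change of siLINC01186 over siNC against gene length in the tables, for members (circles) and other protein-coding genes (squares) with a mean log2 CPM above 2; n is the number of genes. The value for other genes goes from 0.12 under 600 nt to -0.05 from 4000 nt, and members lie between 0.11 and 0.16 in all classes.

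Between replicate numbers, with treatment as a term in the fit, 10 of 96 members differed. The comparison shows how far the 2 repeats of the experiment stood apart. At an adjusted p under 0.05, 4191 genes were called (17.5%), and the 10 members (10.4%) are a smaller share than that background. In replicate 2, 6 members rose, against 7.96% of all genes, and 4 fell, against 9.55%. Scaled by total counts alone, 17 members rose and 2 fell, beside 4077 of the 23942 genes called, 68.5% of these higher. The median over all genes moved from 0.02 to 0.13 with that scaling. CYC1 and ATP5D were then no longer called (edgeR adjusted p = 0.0622 and 0.0596). Only COX6B2 passed a log2 fold change beyond 1 with an unadjusted p under 0.05, against 4.81% of all genes. Both replicate 2 libraries lay above both replicate 1 libraries for 26 members, against 27% of all genes, and below them for 15, against 25.6%. The median log2 difference of the members was 0.04, against 0.02 over all genes. Without the treatment term 3 members were called, CYCS, NDUFA2 and COX6B2, and DESeq2's Wald test called CYCS alone. When 1 library was also left out, 1 member was called without siLINC01186 replicate 1 (none of the 10), 3 without siNC replicate 1, 7 without siNC replicate 2 and 8 without siLINC01186 replicate 2.

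Cytochrome c and its electron donor in complex III both fell. CYCS (chr7:25158270-25164980, hg19, minus strand) was at 170 CPM in siNC and 189 CPM in siLINC01186 of replicate 1, and at 121 and 134 CPM in replicate 2. Both replicate 2 libraries were below both replicate 1 libraries. The log2 difference was -0.49 (SE 0.11, edgeR adjusted p = 0.000176). It was no longer called in the fit that left out both siLINC01186 replicate 1 and the treatment term. CYC1, the cytochrome c1 of complex III (chr8:145149938-145152430, hg19, plus strand), was at 204 and 222 CPM in siNC and siLINC01186 of replicate 1 and at 163 and 165 CPM in replicate 2 (log2 difference -0.38, SE 0.11, edgeR adjusted p = 0.00472). ATP5D, the delta subunit in the stalk of ATP synthase (chr19:1241749-1244824, hg19, plus strand), was at 215 and 233 CPM in replicate 1 and at 185 and 161 CPM in replicate 2 (log2 difference -0.38, SE 0.11, edgeR adjusted p = 0.00447). NDUFAF4 (chr6:97337187-97345767, hg19, minus strand) was at 12.5 and 16.2 CPM in replicate 1 and at 6.63 and 12.2 CPM in replicate 2 (log2 difference -0.64, SE 0.17, edgeR adjusted p = 0.00296). Its replicate 2 values lay below those of replicate 1 in both treatments, and siNC replicate 2 was the low library. The complex I assembly factors had a median of -0.30, and 7 of 8 were below 0. Complex III as a whole went the other way, with a median of 0.11 and 7 of 10 above 0. Complex IV had a median of 0.17 with 12 of 16 tested above 0. Medians were 0.0025 for complex I with 19 of 37 above 0, 0.09 for complex II with 2 of 4, and 0.03 for complex V with 9 of 16.

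The members that rose belonged to complexes I, II and IV. COX6B2 (chr19:55861070-55866182, hg19, minus strand) had 20 and 9 counts in siNC and siLINC01186 of replicate 1, and 44 and 39 counts in replicate 2. At 1.19 and 0.630 CPM against 2.73 and 2.19 CPM, its log2 difference was 1.44 with a standard error of 0.39 (edgeR adjusted p = 0.00249). NDUFA2, an accessory subunit of the NADH-oxidising arm (chr5:140024948-140027370, hg19, minus strand), was at 23.4 and 26.7 CPM in replicate 1 and at 36.0 and 36.5 CPM in replicate 2. The replicates did not overlap (log2 difference 0.54, SE 0.14, edgeR adjusted p = 0.00191). SDHA (chr5:218338-257197, hg19, plus strand) was at 328 and 352 CPM in replicate 1 and at 418 and 399 CPM in replicate 2 (log2 difference 0.27, SE 0.10, edgeR adjusted p = 0.0397). COX8A (chr11:63742079-63744015, hg19, plus strand) was at 84.8 and 86.4 CPM in replicate 1 and at 116 and 102 CPM in replicate 2 (log2 difference 0.34, SE 0.12, edgeR adjusted p = 0.0257). NDUFB4, a membrane-arm subunit (chr3:120315128-120321258, hg19, plus strand), was at 77.2 and 89.2 CPM in replicate 1 and at 104 and 103 CPM in replicate 2 (log2 difference 0.32, SE 0.12, edgeR adjusted p = 0.0447). COX6C (chr8:100890223-100906242, hg19, minus strand) was at 70.7 and 89.4 CPM in replicate 1 and at 87.0 and 113 CPM in replicate 2 (log2 difference 0.32, SE 0.12, edgeR adjusted p = 0.0453). For COX6C the groups overlapped, since siNC replicate 2 lay below siLINC01186 replicate 1.

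Calls among these 10 members were lost when 1 library was left out, in fits without the treatment term, and none turned direction. Without siNC replicate 1, COX6B2 (log2 difference 1.95), CYCS (-0.56) and NDUFAF4 (-0.77) were still called. NDUFA2 (0.44), COX6C (0.16), COX8A (0.33), NDUFB4 (0.21), SDHA (0.22), CYC1 (-0.44) and ATP5D (-0.43) were not. Without siLINC01186 replicate 1, 0 of the 10 were called. Without siNC replicate 2, 5 were still called, namely ATP5D, COX6C, CYC1, CYCS and NDUFA2, and without siLINC01186 replicate 2, 6 were, namely COX6B2, COX8A, CYC1, CYCS, NDUFA2 and NDUFAF4. The value of NDUFAF4 went from -0.22 without siNC replicate 2 to -1.10 without siLINC01186 replicate 2, and that of COX6C from 0.13 without siLINC01186 replicate 2 to 0.50 without siNC replicate 2.

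**Figure D4:**
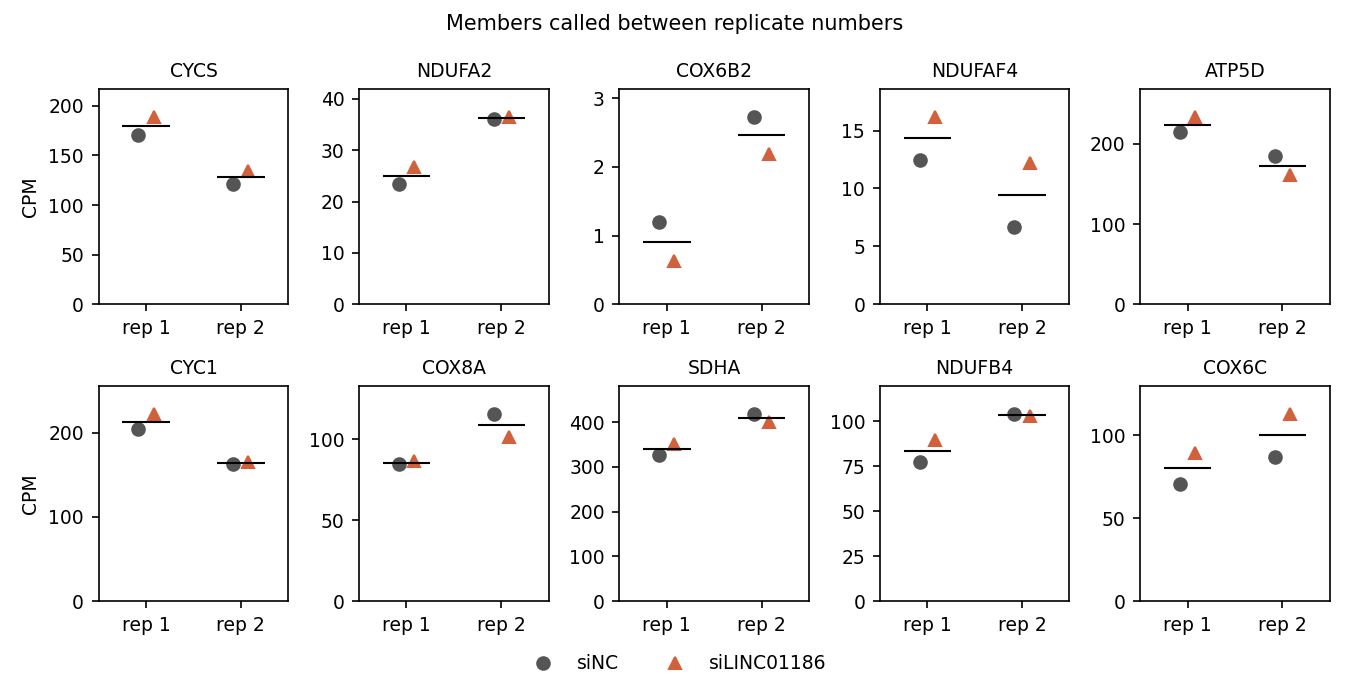
CPM of the 10 members that differed between replicate numbers, in each of the 4 libraries, with axes from 0. Circles are siNC, triangles are siLINC01186 and bars are the mean of the 2 libraries of a replicate number; CYCS, CYC1, ATP5D and NDUFAF4 are lower in replicate 2 and the other 6 are higher.

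**Figure D5:**
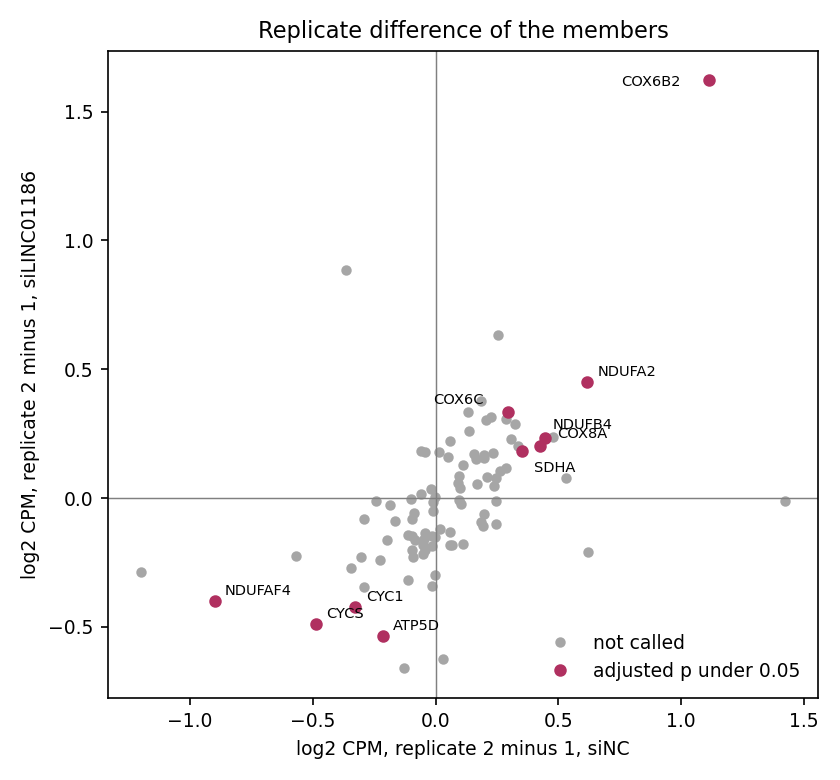
Difference in log2 CPM between replicate 2 and replicate 1 in siNC (x axis) and in siLINC01186 (y axis) for members whose counts over the 4 libraries came to 50 or more. Coloured points are the 10 members with an adjusted p under 0.05, and these lie on the same side of 0 in both treatments.

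Mitochondrial ribosomal proteins and regulators held more calls between replicate numbers than the members by share, and cytosolic ribosomal proteins fewer, a comparison of lists that was not tested. Of 87 cytosolic ribosomal protein genes, 1 rose and 3 fell (4.6%, against 17.5% of all genes), with a median log2 difference of 0.03. For mitochondrial ribosomal proteins the median log2 difference was -0.23, and 23 of 78 fell (29.5%) while 0 rose. MRPL12, which also binds mitochondrial RNA polymerase, was at 233 and 251 CPM in siNC and siLINC01186 of replicate 1 and at 148 and 139 CPM in replicate 2 (log2 difference -0.75, SE 0.11, edgeR adjusted p = 3.42e-10). Of 21 regulators of respiratory genes and mitochondrial DNA tested, 11 fell and 2 rose (61.9%), with a median of -0.32. PPRC1, a coactivator of NRF1, was at 163 and 163 CPM in replicate 1 and at 111 and 120 CPM in replicate 2 (log2 difference -0.50, SE 0.11, edgeR adjusted p = 0.000163). TFAM, which packages mitochondrial DNA, was at 90.7 and 110 CPM in replicate 1 and at 69.3 and 81.8 CPM in replicate 2 (log2 difference -0.41, SE 0.12, edgeR adjusted p = 0.00639). ESRRA, the receptor ERR-alpha, fell by 0.39 on the log2 scale (edgeR adjusted p = 0.00404), and PPARGC1A, its coactivator, rose by 0.55 (edgeR adjusted p = 0.00744).

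Assembly factors outside the rule went in both directions, with 4 rising and 4 falling of 48 (16.7%, close to the 17.5% of all genes called). BCS1L, which inserts the Rieske protein into complex III, was at 29.6 and 36.0 CPM in replicate 1 and at 18.6 and 22.3 CPM in replicate 2 (log2 difference -0.68, SE 0.15, edgeR adjusted p = 6.76e-05). SCO2, a copper chaperone of complex IV, fell by 0.56 on the log2 scale (edgeR adjusted p = 0.00145). Among the mitochondrially encoded subunits, 2 rose and 3 fell (38.5%). ND1 was at 2402 and 1890 CPM in replicate 1 and at 1676 and 1454 CPM in replicate 2 (log2 difference -0.45, SE 0.08, edgeR adjusted p = 5.83e-07), and ND3 fell by 0.44 on the log2 scale, ND2 fell by 0.24, while ND4 rose by 0.22 and ND4L by 0.28. ATPIF1, the inhibitor of ATP synthase hydrolysis, rose from 69.3 and 71.3 CPM in replicate 1 to 96.1 and 97.0 CPM in replicate 2 (log2 difference 0.46, SE 0.12, edgeR adjusted p = 0.00181). Of 20 hypoxia-responsive genes 8 rose and 1 fell (45%), and the median within siNC was 0.61 against -0.16 within siLINC01186.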

How the data were processed

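Poly(A) RNA-seq libraries of cells labelled HepG2 were analysed, with 2 libraries per treatment grouped by the sample labels. The authors deposited unnormalized read counts and TPM values per gene. The deposited TPM equalled counts divided by the listed length and scaled per library, to within 2.91e-05 TPM, and was used for this check only. The submitters' processing notes name HISAT2, TopHat2, Bowtie2, HISAT and hg19 with no role, and the counting program, the annotation and the strand setting are not given in the sources used here. The work starts from these counts.

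Using edgeR 4.0.16 (limma 3.58.1, R 4.3.3), the 23942 genes that reached 5 counts over the 4 libraries were scaled by TMM and tested by quasi-likelihood F tests, and p was adjusted over all of them by Benjamini-Hochberg. Replicate 2 was compared with replicate 1 with treatment as a term, which leaves 1 residual degree of freedom. Log2 CPM used a prior count of 2, and the standard error was derived from the fold change and the F statistic. Alternatives were DESeq2 1.42.0 size factors and Wald test, total counts, other filters, protein-coding genes only, a length trend, the replicate block or no treatment term, other prior counts and leaving out each library. The fits were also run on simulated counts, with planted changes far larger than the members' medians and no other difference between libraries. That run cannot show how differences of the members' size fare.

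The members and the gene lists were chosen with earlier results of these data known. Genes named were the core subunits, isoform pairs, the members with the smallest p among those called, the 2 members per complex with the largest difference within a replicate number, members at 0 in a library, and up to 5 called genes per outside list. NDUFB6, NDUFA5, NDUFA10, NDUFS6, NDUFAF8, ATP5E, CA9, USMG5, C14orf2 and the mitochondrially encoded genes without a call were named after their values were seen. A result that the naming rule covers is not reported here. Promoters were searched with Python 3.11.15. No genome of the files' build was used here, so promoter positions are on GRCh38.p14 and gene positions are as deposited.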

Additional observations from a re-analysis of the deposited data

Results flagged for a closer look

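The difference between siLINC01186 and siNC went opposite ways in the 2 replicate numbers, beyond counting error in size, for 4 members, and this was not tested. SDHA was higher by 0.10 in log2 CPM in replicate 1 and differed by -0.067 in replicate 2. ATP5B gave 0.035 and -0.096, ATP5D gave 0.12 and -0.20, and ATP5G3, a c-ring gene, gave 0.16 and -0.094. NDUFB11, a membrane-arm subunit of complex I, differed between replicate 2 and replicate 1 by 0.19 in siNC and by -0.11 in siLINC01186, which was not tested either.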

How the results depend on the processing

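For siLINC01186 against siNC, 0 members were called under each alternative except the replicate block, and the median over members stayed above 0. The labels do not say what a replicate number marks, and same-numbered libraries deviated together with a correlation of 0.61 over 15385 genes. With the replicate block 278 genes were called and 3 members, all higher, among them NDUFB5 (log2 0.51) and NDUFAF4. The block also called 7 of the 13 mitochondrially encoded subunits, all lower, with ND5 at an edgeR adjusted p of 0.000986. All genes called came to 5 with at least 1 count in any library, to 1 with DESeq2's Wald test and to between 0 and 6 when 1 library was left out, where a lone library was assumed to vary like the other group. The median over members was 0.072 with the length trend and between 0.13 and 0.16 when 1 library was left out. Within replicate 1 it was 0.11 with the length trend, and within replicate 2 it was 0.15 by total counts and 0.049 with the length trend.

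Between replicate numbers, 2158 genes and 3 members were called without the treatment term, 2754 and 6 with edgeR's expression filter, and 925 and 1 with DESeq2's Wald test. By total counts 4077 genes and 19 members were called, 17 members higher and 2 lower. Of all calls 68.5% were higher. The median over members was 0.15 while that over all genes was 0.13, so members stayed close to all genes. Leaving out 1 library was added after seeing the data in a form without the treatment term, since 3 libraries leave no residual degree of freedom with it. It gave 1276 to 3302 genes, 1 to 8 members and a median of -0.084 to 0.085. Without siNC replicate 1 it gave 1488 genes, and without siLINC01186 replicate 1 the lowest counts, 1276 genes and 1 member. Without siLINC01186 replicate 2 it gave 2723 genes and a median of -0.014. Over the members followed through all alternatives, 127 values kept their side of the threshold, 51 were no longer called, 2 became called and none turned direction. All 51 lost calls fell on the 10 members called between replicate numbers. The members followed for siLINC01186 against siNC were not called in the main fit, so they had no call to lose. The cause of these changes was not tested beyond what each alternative alters. With 2 libraries per group, whether differences of the size of the members' median could be called gene by gene was not tested.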
